A study of Mus musculus with 9 samples.

Results

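Chromatin accessibility was compared between adult and newborn mouse cardiomyocytes, the contractile cells of the heart, by ATAC-seq, in which a transposase cuts and tags DNA that is open in the nucleus. The adult libraries were made at postnatal day 56 (P56) and the newborn libraries at postnatal day 1 (P1), with 3 libraries at each stage, replicates 1 to 3. All 33844 transcription start site (TSS) regions and all 25915 peaks of the series entered the comparison, and 6 of the 9 libraries carry it. The other 3 libraries, from postnatal day 14 (P14), shared the fit and gave the intermediate stage. All animals were CD1 (ICR) mice with no engineered allele named in the labels. Each P1 library pooled 12 hearts and each P56 library 6 to 7, and nuclei were sorted by an antibody against Pcm1, a centrosomal protein that marks cardiomyocyte nuclei. Surgery is mentioned in the growth protocol, but not if it applied to the hearts used here. Sequencing batch, sex and time of day of collection are absent from the labels.

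The newborn mouse heart grows partly by division of its cardiomyocytes, and within weeks these cells leave the cell cycle, enlarge and build a denser contractile apparatus. Over the same period the heart turns from glucose and lactate toward fatty acids as fuel, its mitochondria multiply, and troponin and myosin isoforms are exchanged. Open chromatin at a gene start marks DNA that regulatory proteins can reach; it does not measure the RNA made.

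Start sequences are shown for 4 genes that stand for the main patterns: Myh7 (a contractile gene that rose), Ciart (a clock gene that rose), Cpb1 (the fall outside predicted genes that held in each fit) and Slit2 (the best covered fall). Each line gives the 250 bases before the RefSeq start on GRCm38.p6, on the strand of the gene: Myh7 at chr14:54994627-54994876 (minus strand), Ciart at chr3:95882229-95882478 (minus), Cpb1 at chr3:20275734-20275983 (minus) and Slit2 at chr5:47982905-47983154 (plus). Capitals mark matches, on either strand, to any of 18 short motifs that were searched.
Myh7: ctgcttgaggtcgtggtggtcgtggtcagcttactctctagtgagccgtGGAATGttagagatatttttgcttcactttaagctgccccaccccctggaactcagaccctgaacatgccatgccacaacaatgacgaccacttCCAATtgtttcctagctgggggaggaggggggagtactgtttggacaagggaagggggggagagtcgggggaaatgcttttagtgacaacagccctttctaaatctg
Ciart: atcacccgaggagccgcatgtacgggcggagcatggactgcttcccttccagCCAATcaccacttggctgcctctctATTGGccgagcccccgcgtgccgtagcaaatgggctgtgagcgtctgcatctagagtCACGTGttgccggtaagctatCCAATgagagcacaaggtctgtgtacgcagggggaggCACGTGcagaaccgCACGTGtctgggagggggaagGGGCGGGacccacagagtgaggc
Cpb1: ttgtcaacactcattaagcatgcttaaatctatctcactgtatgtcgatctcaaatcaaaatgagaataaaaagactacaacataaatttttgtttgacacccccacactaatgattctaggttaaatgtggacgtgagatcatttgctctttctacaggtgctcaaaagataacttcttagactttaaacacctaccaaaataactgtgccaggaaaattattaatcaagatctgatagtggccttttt
Slit2: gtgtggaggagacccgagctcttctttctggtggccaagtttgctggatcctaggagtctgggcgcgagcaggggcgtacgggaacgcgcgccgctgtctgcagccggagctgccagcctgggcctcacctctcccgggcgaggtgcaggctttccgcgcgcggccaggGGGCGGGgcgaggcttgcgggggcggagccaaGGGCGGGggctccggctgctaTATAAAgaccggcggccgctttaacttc
The Myh7 window holds the TEAD letters GGAATG at -201 and the CCAAT letters at -107 from the start. Ciart holds the E-box letters CACGTG, bound by clock proteins among others, at -116, -58 and -44, beside CCAAT matches and the SP/KLF letters GGGCGGG. Cpb1 has no match in these 250 bases and a GC content of 35.3% over the 300-base window, against 68.0% for Slit2, which holds SP/KLF matches and the TATA box letters TATAAA. A match describes the letters only.

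The libraries held 1414979 to 2167369 TSS counts at P1 and 874639 to 1468352 at P56, and 889605 to 1217798 and 604684 to 1143607 peak counts. Values below are CPM, read counts scaled to the TMM-adjusted library size, and a rise or fall is an adjusted p below 0.05 in edgeR's quasi-likelihood test. At all 12 of the largest rises called in each fit, P1 replicate 1 was the lowest newborn library and P56 replicate 2 the highest adult one. The median level of all tested TSS regions was 18.9 CPM over the 9 libraries. The start of Tnnt2, cardiac troponin T, held 81.3, 139.8 and 156 CPM at P1 and 136, 373 and 192 CPM at P56, which overlap. The start of Pcm1, whose protein was used for the sort, held 18.3, 34.9 and 56.2 CPM at P1 and 22.02, 66.2 and 47.8 CPM at P56 (adjusted p = 0.56). In pooled nuclei, a larger share of nuclei of one kind and more open DNA per nucleus cannot be told apart. The summed level of 16 thick-filament genes was 829.6, 1137 and 1358 CPM at P1 and 1397, 2630.0 and 1714 CPM at P56, with no overlap and with these libraries at the ends. Each list is also given without P56 replicate 2 and without both of these libraries. The most open 10% of TSS regions took 31.9% to 33.0% of counts at P1 and 35.5% to 36.8% at P56, which do not overlap (exact permutation test, two-sided, p = 0.1, the smallest that 3 libraries against 3 allow). Its part in the results was not tested.

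Start regions changed in both directions. Of 33747 tested, 581 (1.72%) rose and 272 (0.806%) fell by P56, 853 (2.53%) in all. Rises were of moderate size at open regions, with a median fold of 1.84 from a median of 55.9 CPM to a median of 100.4 CPM. Falls were at sparse regions, with a median 2.48-fold drop from 16.3 to 6.50 CPM, and 55.9% of them belong to predicted genes, against 10.8% of the rises. The P14 mean lay between the P1 and P56 means at 542 of the 581 rises and 254 of the 272 falls. At regions not called it did so at 12137 of 32894. Calls were picked for a wide gap between P1 and P56, which favours a P14 mean inside it, so these counts do not test a gradual course. Calls that stood in the fit of all 9 libraries and in each of 9 fits with 1 library left out numbered 68 rises (0.201%) and 4 falls (0.0119%). All 3 adult libraries lay above all 3 newborn ones at 10.9% of regions and below them at 13.2%. Without TMM, on library size alone, the split turned to 319 rises and 778 falls, with the median of all regions at -0.14, so the balance of rises to falls depends on the scaling. It also turned among calls beyond a log2 change of 1, with 173 rises and 248 falls.

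**Figure D1:**
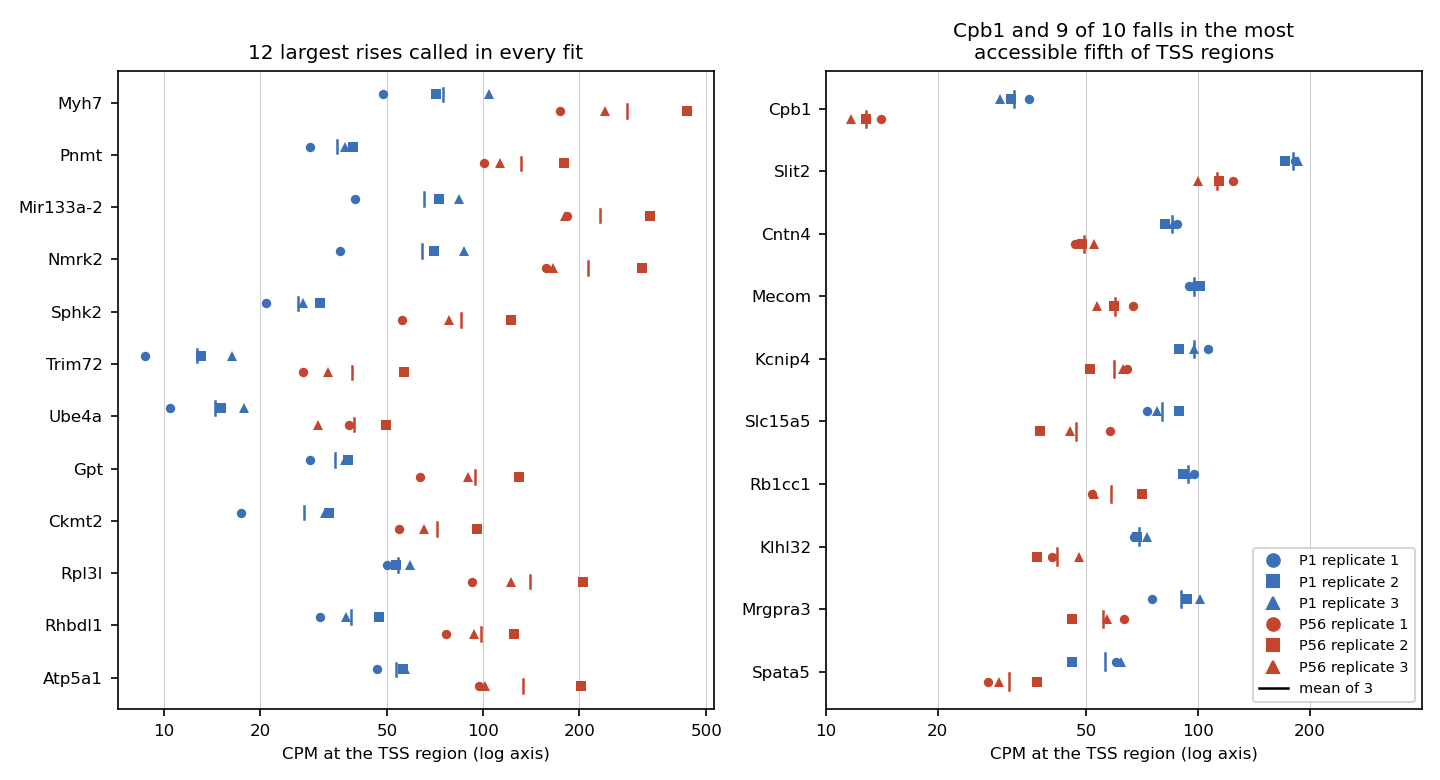
CPM in each library (log axis) at the start regions of the 12 largest rises that were called in each fit (left), and of Cpb1 and 9 of the 10 falls among the top 20% of TSS regions by mean CPM (right); blue is P1, red is P56, shapes are replicates 1 to 3 and the short bar is the mean of 3. The red points lie right of the blue ones at all 12 rises and left of them at each fall shown, and P56 replicate 2, the red square, is the highest point at all 12 rises.

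The thick filament, made of myosin and its partners, held one of the largest rises. Myh7 (chr14:54970684-54994626) encodes the slow beta-myosin heavy chain, and its start region held 48.7, 71.3 and 104 CPM at P1 and 174, 433 and 241 CPM at P56. All adult libraries lay above all newborn ones, with replicate 2 highest among the adults and replicate 1 lowest among the newborns. The log2 change was 1.93 ± 0.24 (adjusted p = 4.3e-05), and 1.19 without those 2 libraries. The P14 mean lay between them, from 92.2, 154 and 145 CPM. Myh6, its neighbour and the main adult mouse heavy chain, held 44.3, 93.2 and 138 CPM at P1 and 111, 276 and 169 CPM at P56. There the stages overlapped, since P1 replicate 3 lay above P56 replicate 1, and the log2 change was 1.03 ± 0.27 (adjusted p = 0.035). Myh7b rose by a log2 of 0.88 ± 0.18, Myl2 by 1.02 ± 0.24, Myl3 by 0.81 ± 0.18 and Myom3, an M-band protein, by 0.78 ± 0.17. In the list as a whole 6 of 16 (37.5%) rose and 0 fell, against the 1.72% and 0.806% of all regions. Open regions rose more often in general. With regions split into 5 equal groups by mean CPM, 6.84% of the most open group rose and 0.148% fell. That group starts at 39.9 CPM and the list had a median level of 87.6 CPM, so it is the closer comparison. Whether this or the later lists exceed regions of equal level was not tested. The rises numbered 1 without P56 replicate 2 and 3 without both libraries. The list's median log2 change was 0.69, 0.47 without P56 replicate 2 and 0.21 without both libraries. All regions had a median near 0, and the most open group had 0.26, 0.20 and 0.15 in the same fits.

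Among thin-filament genes, which include the troponins that switch contraction on with calcium, 5 of 18 rose and 0 fell. Tnnt1, the slow skeletal troponin T, held 84.7, 136 and 135 CPM at P1 and 176, 427 and 197 CPM at P56. The adult libraries lay above the newborn ones, and the log2 change of 1.19 ± 0.21 (adjusted p = 0.0036) was called in all 9 fits with a library left out. Tnni3, the adult cardiac troponin I, starts 6553 bp away and held 73.9, 143 and 148 CPM at P1 and 171, 406 and 200.4 CPM at P56, with no overlap. Its log2 change was 1.11 ± 0.22 (adjusted p = 0.00896), and the call was lost without P56 replicate 2, where it was 0.62. Tnnt2, the cardiac troponin T, rose by 0.91 ± 0.23, Tpm1, alpha-tropomyosin, by 0.93 ± 0.21, and Acta1, skeletal alpha-actin, by 0.96 ± 0.26. Rises numbered 1 without P56 replicate 2 and 2 without both libraries, where 1 member also fell in the last fit. The median of all 18 was 0.37, and 0.09 without both libraries.

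At the Z-disc, which anchors thin filaments and titin, 7 of 27 rose and 0 fell. Tcap, which caps titin at the Z-disc, held 30.9, 52.8 and 42.00 CPM at P1 and 66.9, 143 and 103 CPM at P56, with no overlap and a log2 change of 1.34 ± 0.24 (adjusted p = 0.0036). Ttn, titin itself, held 139, 164 and 205 CPM at P1 and 166, 511 and 216 CPM at P56. Its stages overlapped and P56 replicate 2 alone stood far above the rest: the log2 change was 0.83 ± 0.23 with it and 0.17 without it. Ankrd23 (1.07), Ldb3 (1.01), Flnc (1.01) and Fhl2 (0.90) rose too, by the log2 changes in brackets. Rises numbered 2 without P56 replicate 2 and 2 without both libraries. Over the 27 genes the median was 0.57, and -0.01 without both libraries.

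At the costamere, which ties the contractile lattice to the cell membrane, 3 of 27 rose and 0 fell. Trim72 directs repair of the muscle membrane and held 8.69, 13.02 and 16.3 CPM at P1 and 27.3, 56.4 and 32.6 CPM at P56. Even the lowest adult library lay above the highest newborn one, and the log2 change was 1.65 ± 0.29 (adjusted p = 0.0032; 0.055 without both libraries). Dysf, dysferlin, which acts in the same repair, rose by 0.65 ± 0.15, and Sgca, alpha-sarcoglycan, by 0.88 ± 0.18. No intercalated disc gene of 17 was called; Jup, Nrap and Xirp1, those with the smallest p, had adjusted p of 0.053, 0.11 and 0.11. Costamere rises numbered 1 without P56 replicate 2 and 0 without both libraries. The costamere median was 0.33 and that of the disc 0.37, but without both libraries they were -0.08 and -0.11. The most open group of regions had medians of 0.26 and 0.15 in these fits. In that group 6.84% rose, against 11.1% of the costamere genes.

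Calcium cycling genes gave 2 rises of 25, Hrc, which binds calcium in its store, the sarcoplasmic reticulum (log2 change 1.06 ± 0.28), and Cacna1c, the L-type calcium channel (0.61 ± 0.15). Of 28 channel genes 4 rose, among them Kcnip2, a potassium channel subunit, and Fxyd1, a regulator of the sodium pump, by log2 changes of 0.57 and 0.75, called in 1 and 3 of 9 fits with a library left out. Hrc and Cacna1c were called in 2 and 4 of them. Rises among calcium genes numbered 0 without P56 replicate 2 and 1 without both libraries, and among channel genes 0 without P56 replicate 2 and 0 without both libraries. No gene of either list fell. Medians were 0.39 and 0.38, and 0.09 and 0.14 without both libraries. The most open group of regions had 0.26 and 0.15 in these fits. In that group 6.84% rose, against 8% of the calcium genes and 14.3% of the channel genes.

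**Figure D2:**
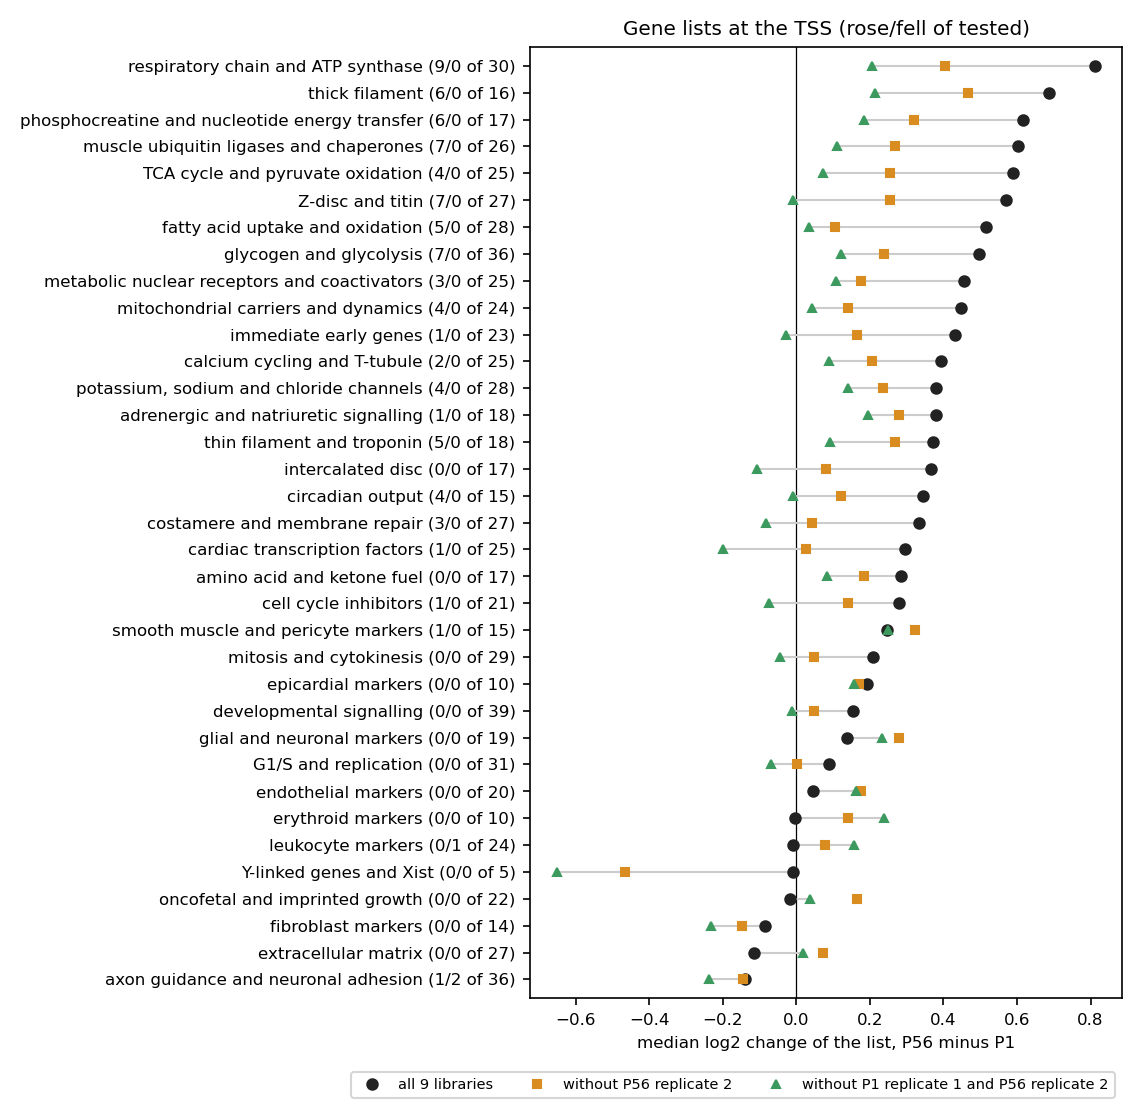
Median log2 change, P56 minus P1, of TSS regions in 35 gene lists, with all 9 libraries (black), without P56 replicate 2 (orange) and without P1 replicate 1 and P56 replicate 2 (green); brackets give the members that rose, fell and were tested. Respiratory chain genes have the highest median, 0.81, and muscle and metabolic lists lie nearer 0 when both libraries are left out (thick filament 0.69 and 0.21), while smooth muscle markers lie at 0.25 in both fits.

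Muscle microRNA genes are listed in the TSS table under their own symbols. Mir133a-2, a muscle microRNA of the miR-1 and miR-133 cluster, held 39.5, 72.6 and 84.01 CPM at P1 and 183, 333 and 181 CPM at P56. Its stages were apart and its log2 change was 1.85 ± 0.25 (adjusted p = 1.4e-04). Mir1a-1, in the same cluster, held 18.7, 32.2 and 38.9 CPM at P1 and 40.5, 88.8 and 47.8 CPM at P56. There P56 replicate 1 lay just above P1 replicate 3, and the log2 change was 1.01 ± 0.28 (adjusted p = 0.044), called in 2 of 9 fits with a library left out. The myosin microRNAs of the miR-208 family sit in introns of the heavy chain genes, miR-208a in Myh6 and miR-208b in Myh7. Their mature 3p sequences are shown because both lie in heavy chain genes whose start regions rose. They share a seed (bases 2 to 8, in capitals). Positions are chr14:54949072-54949093 and chr14:54975710-54975731, minus strand, GRCm38.p6, from RefSeq.
mmu-miR-208a-3p: aUAAGACGagcaaaaagcuugu
mmu-miR-208b-3p: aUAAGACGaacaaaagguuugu
Mir208a held 26.5, 39.1 and 48.8 CPM at P1 and 48.5, 136 and 85.05 CPM at P56. P56 replicate 1 lay just below P1 replicate 3, so the stages overlapped, and the log2 change was 1.26 ± 0.27 (adjusted p = 0.012). Mir208b, inside the gene with the larger change, held 7.39, 12.3 and 16.8 CPM at P1 and 11.5, 39.9 and 13.98 CPM at P56. Its P56 replicates 1 and 3 lay within the P1 range, the log2 change was 0.93 ± 0.35 and it missed the threshold (adjusted p = 0.13). Over all 570 microRNA genes tested 6 rose and 3 fell, 1.05% and 0.526%, near the share of all regions.

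In the respiratory chain and ATP synthase list 9 of 30 rose and 0 fell, and all 30 members had a log2 change above 0. The rises numbered 2 without P56 replicate 2 and 3 without both libraries. Atp5a1, the alpha subunit of ATP synthase, held 46.5, 56.2 and 56.7 CPM at P1 and 96.9, 202 and 101 CPM at P56. Its stages were apart and its log2 change was 1.35 ± 0.22 (adjusted p = 0.00201). Cyc1, cytochrome c1 of complex III, held 19.1, 36.3 and 27.3 CPM at P1 and 51.1, 92.6 and 58.3 CPM at P56, also apart, with a log2 change of 1.32 ± 0.26. Cox4i1, of cytochrome oxidase, rose by 1.05 ± 0.22 and had 1.04 without both libraries. The complex I genes Ndufs7, Ndufv1, Ndufb10 and Ndufb8 rose by 1.28, 0.93, 1.04 and 1.02, and Cox6a2 and Uqcrc1 by 1.09 and 0.67. Their median was 0.81, 0.41 without P56 replicate 2 and 0.20 without both libraries. Genes of the mitochondrial ribosome, which makes some of these subunits, had a median of 0.41 over 60 regions with 2 rises, and 0.08 without both libraries.

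In the list of phosphocreatine and nucleotide energy transfer, which includes genes of creatine supply and of the NAD pathway, 6 of 17 rose and 0 fell. Ckmt2, the mitochondrial creatine kinase of muscle, held 17.4, 32.9 and 32.03 CPM at P1 and 54.6, 95.6 and 65.2 CPM at P56. Nmrk2, a kinase that makes the NAD precursor nicotinamide mononucleotide, held 35.6, 69.9 and 87.2 CPM at P1 and 158, 315 and 165 CPM at P56. Both were apart between stages, with log2 changes of 1.42 ± 0.27 and 1.75 ± 0.26 (adjusted p = 0.0064 and 5.4e-04). Gamt, which makes creatine, and Slc6a8, which imports it, rose by 1.05 ± 0.23 and 0.96 ± 0.21. Ak1, adenylate kinase, and Naprt, of the NAD pathway, rose by 0.71 and 1.10. Rises numbered 2 without P56 replicate 2 and 4 without both libraries. The 17 genes had a median of 0.62, and 0.18 without both libraries.

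Among fatty acid genes 5 of 28 rose and 0 fell, and all 28 lay above 0. Acadvl, the first enzyme of long-chain beta-oxidation, held 35.6, 37.7 and 57.2 CPM at P1 and 96.9, 118 and 99.03 CPM at P56. Acacb makes malonyl-CoA, which restrains entry of fatty acids into mitochondria, and held 102, 132 and 119.7 CPM at P1 and 189, 277 and 205 CPM at P56. The stages were apart at both, and the log2 changes were 1.27 ± 0.20 and 0.93 ± 0.16. Without both libraries they were 1.00 and 0.63 (adjusted p = 2.5e-04 and 0.00496). Plin4 and Plin5, which coat lipid droplets, and Pnpla2, which breaks down their fat, rose by 1.17, 0.88 and 0.79. Rises numbered 2 without P56 replicate 2 and 2 without both libraries. The list's median dropped from 0.52 to 0.04 without both libraries.

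In glycogen and glucose use 7 of 36 rose and 0 fell. Pygm, which breaks down muscle glycogen, held 62.6, 76.1 and 95.03 CPM at P1 and 111, 227 and 149 CPM at P56, apart and called in all 9 fits with a library left out (log2 change 1.07 ± 0.19). Slc2a4, the insulin-regulated glucose transporter, held 29.1, 58.2 and 80.3 CPM at P1 and 88.1, 174 and 104 CPM at P56. Its lowest adult value, in replicate 1, was close to the highest newborn one, in replicate 3, and the log2 change was 1.15 ± 0.25. Pdk2, which restrains glucose oxidation by blocking pyruvate dehydrogenase, rose by 0.89 ± 0.18, and the glycolytic enzymes Pfkm, Eno3, Tpi1 and Gpi1 by 1.09, 0.95, 0.78 and 0.50. In the TCA cycle and pyruvate list 4 of 25 rose and 0 fell, led by Gpt, alanine aminotransferase, with 28.7, 37.7 and 36.8 CPM at P1 and 63.4, 129 and 89.7 CPM at P56. Its stages were apart, with a log2 change of 1.47 ± 0.23 (adjusted p = 0.0013), followed by Sdhb (0.89), Idh2 (0.64) and Dlat (0.60). Of these, Gpi1 and Dlat were called in 1 and 1 of 9 fits with a library left out. Glucose rises numbered 1 without P56 replicate 2 and 1 without both libraries, where 1 member also fell. TCA rises numbered 1 without P56 replicate 2 and 1 without both libraries. Medians were 0.50 for glucose and 0.59 for the TCA cycle, and 0.12 and 0.07 without both libraries. Of 17 amino acid and ketone genes 0 rose and 0 fell, with a median of 0.28.

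Mitochondrial carriers gave 4 rises of 24: Slc25a34 (log2 change 1.32 ± 0.24), Slc25a22, a glutamate carrier (0.53 ± 0.14), and the outer-membrane pores Vdac1 (0.79 ± 0.22) and Vdac2 (0.68 ± 0.18). Of 25 metabolic nuclear receptors and coactivators 3 rose, namely Thrb, the thyroid hormone receptor beta (0.88 ± 0.23), Ppard, a fatty acid receptor (0.77 ± 0.20), and Esrrb, an orphan receptor (0.66 ± 0.16). Of 9 fits with a library left out, 2 called Thrb, 1 called Ppard and 5 called Esrrb, and 1 called Slc25a22. Rises in each of these lists numbered 0 without P56 replicate 2 and 0 without both libraries. No carrier or receptor fell. Medians were 0.45 and 0.46, and 0.04 and 0.11 without both libraries. The most open group of regions had 0.26 and 0.15 in these fits. In that group 6.84% rose, against 16.7% of the carriers and 12% of the receptors.

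Pnmt makes adrenaline from noradrenaline, and its start region held 28.7, 39.1 and 36.8 CPM at P1 and 100.4, 179 and 113 CPM at P56. It had the smallest adjusted p of the named genes. The lowest adult library held more than the highest newborn one, with P14 at 38.9, 35.9 and 67.6 CPM, and the log2 change of 1.93 ± 0.22 (adjusted p = 1.8e-05) was still 1.47 without both libraries. Pnmt lies beside Tcap on chromosome 11, which also rose. It was the 1 call among 18 adrenergic and natriuretic genes, whose median was 0.38, or 0.19 without both libraries. Nppb, the natriuretic peptide gene, held 26.1, 38.4 and 46.2 CPM at P1 and 48.5, 75.2 and 66.4 CPM at P56 and missed the threshold (adjusted p = 0.059).

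Other rises called in each fit were spread over functions. Sphk2, a sphingosine kinase, held 20.9, 30.8 and 27.3 CPM at P1 and 55.5, 122 and 78.1 CPM at P56, and its start lies 69 bp from that of the ribosomal protein gene Rpl18, so the windows, whose width is not stated, may share reads. Rpl3l, a ribosomal protein of striated muscle, held 49.97, 53.4 and 58.8 CPM at P1 and 92.5, 205 and 122 CPM at P56. Rhbdl1, a rhomboid family protein, held 30.9, 47.3 and 37.3 CPM at P1 and 76.6, 125 and 93.2 CPM at P56. All 3 were apart between stages, with P56 replicate 2 highest, and log2 changes of 1.72 ± 0.25, 1.38 ± 0.22 and 1.37 ± 0.21. Ube4a, which extends ubiquitin chains, held 10.4, 15.1 and 17.9 CPM at P1 and 37.9, 49.7 and 30.3 CPM at P56. It led the list of muscle ubiquitin ligases and chaperones, in which 7 of 26 rose and 0 fell, with a log2 change of 1.48 ± 0.26. The other members that rose were the ligases Trim54 (1.39), Asb10 (0.98), Asb2 (0.74) and Stub1 (1.00) and the small heat shock proteins Hspb1 (1.21) and Hspb6 (1.02). Rises numbered 1 without P56 replicate 2 and 1 without both libraries, where 1 member also fell. The median was 0.60, and 0.11 without both libraries.

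Of 15 circadian genes 4 rose. Ciart, a repressor within the molecular clock whose start holds the E-box letters shown above, held 27.8, 35.6 and 39.4 CPM at P1 and 63.4, 98.6 and 74.6 CPM at P56. Its adult libraries stood apart while P14, at 27.8, 29.5 and 40.97 CPM, lay at the newborn level, and the log2 change was 1.21 ± 0.23 (adjusted p = 0.005; 0.85 without both libraries). Per1 rose by 0.95 ± 0.21, and Dbp and Tef, clock output factors, by 0.98 ± 0.26 and 0.88 ± 0.21. Rises numbered 1 without P56 replicate 2 and 1 without both libraries, where 1 member also fell. The list's median was 0.34, and -0.01 without both libraries. Time of day at collection is not in the labels, so stage and time of day cannot be told apart for these genes.

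Lists of growth and division held 1 call in all. Since 2.53% of all regions were called either way, lists of this size would hold few calls. No member of the oncofetal and imprinted list (22), of developmental signalling (39), of G1/S and replication (31) or of mitosis and cytokinesis (29) was called in either direction, and 1 of 21 cell cycle inhibitors, Btg2, rose (log2 change 1.09 ± 0.27). Ccnd1, the G1 cyclin D1, held 25.2, 32.2 and 30.5 CPM at P1 and 41.4, 48.9 and 52.4 CPM at P56, and Mcm2, of the replicative helicase, held 60.4, 60.3 and 59.3 CPM at P1 and 74.9, 99.3 and 74.6 CPM at P56. Both were higher in all adult libraries than in all newborn ones, with adjusted p of 0.095 and 0.13. Cenpe, a kinetochore motor, was lower in all adult libraries, with 66.5, 58.9 and 73.5 CPM at P1 and 54.6, 51.9 and 39.6 CPM at P56, and missed the threshold (adjusted p = 0.22). Medians were -0.02 for the oncofetal list, 0.15 for developmental signalling, 0.28 for the inhibitors, 0.09 for G1/S and 0.21 for mitosis. Without both libraries the last 2 were -0.07 and -0.04, and 1 developmental signalling gene fell in that fit. On library size alone the G1/S median was -0.05, below 0. Of 25 cardiac transcription factors 1 rose, Mef2d (0.69 ± 0.18); Gata4 held 62.1, 80.9 and 106 CPM at P1 and 81.04, 158 and 99.03 CPM at P56, which overlap. Without both libraries 0 of the 25 rose and 3 fell. The list's median was 0.30, and -0.20 without both libraries. At the immediate early genes, which respond within minutes to stress or handling, 1 of 23 rose, Dusp1 (0.96 ± 0.24), and the median was 0.43, or -0.03 without both libraries.

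Start regions of marker genes of other cell types held counts in both stages. Summed over their lists, fibroblast markers held 480.4 to 543 CPM at P1 and 464 to 529 CPM at P56, endothelial markers 801 to 941 CPM at P1 and 827 to 1023 CPM at P56 and leukocyte markers 693 to 844 CPM at P1 and 676 to 851 CPM at P56, ranges that overlap. Glial and neuronal markers held 685 to 791 CPM at P1 and 718 to 916 CPM at P56, which overlap as well. Smooth muscle and pericyte markers held 451 to 498 CPM at P1 and 584 to 737 CPM at P56, with no overlap. Their list includes Des, also counted at the Z-disc, and Kcnj8, also counted among the channels. Of its 15 members 1 rose, Smtn, a smooth muscle actin-binding protein (0.72 ± 0.15). Of 24 leukocyte markers 1 fell, Ms4a1, the B-cell antigen CD20, with 38.2, 41.8 and 51.98 CPM at P1 and 23.8, 18.8 and 27.96 CPM at P56 and a log2 change of -0.92 ± 0.25 (adjusted p = 0.044) that was called in 1 of 9 fits with a library left out. Of 10 epicardial and 10 erythroid markers and 27 extracellular matrix genes none was called, with medians of 0.19, -0.00 and -0.11. The summed erythroid level was 369 to 463 CPM at P1 and 468 to 514 CPM at P56, with no overlap. Epicardial sums did not overlap either, at 264 to 281 CPM at P1 and 288 to 320 CPM at P56. The list of Y-linked genes and Xist, 5 in all, gave 0 calls. Of positioned TSS counts, chromosome X took 1.35% to 1.53% at P1 and 1.22% to 1.29% at P56, and chromosome Y 0.0189% to 0.0195% and 0.0127% to 0.0155%, with no overlap (exact two-sided permutation p = 0.1 for each); their part in the results was not tested. Medians of the fibroblast, endothelial, leukocyte, smooth muscle and glial lists were -0.08, 0.04, -0.01, 0.25 and 0.14. Without both libraries they were -0.23, 0.16, 0.16, 0.25 and 0.23, and the erythroid median was 0.24, beside 0.09 for the thin filament in that fit. All tested regions had passed a count filter, so counts at these lists do not show which cell types were present. Olfactory receptor genes also held counts, at a median of 11.8 CPM. The part of cell makeup in the results was not tested.

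Falls at gene starts were mostly small in level. Cpb1, which encodes the pancreatic enzyme carboxypeptidase B and lies in the AT-rich window shown above, held 35.2, 31.5 and 29.4 CPM at P1 and 14.1, 12.8 and 11.7 CPM at P56. The stages were far apart with little spread inside each, and the log2 change of -1.31 ± 0.27 (adjusted p = 0.0101) changed little without both libraries (-1.23). The 3 other falls called in each fit were predicted genes, Gm19938, Gm7134 and Gm15121. Further falls by size were Itgbl1 (-1.34 ± 0.34), the natural killer cell receptor gene Klra17 (-1.33 ± 0.30), Macrod2os2 (-1.19 ± 0.27), Mir5127 (-1.16 ± 0.29), the scavenger receptor gene Olr1 (-1.13 ± 0.28), the sulfate transporter gene Slc13a1 (-1.11 ± 0.29) and Hsd3b3, of steroid synthesis (-1.11 ± 0.27). Klra17 held 19.99, 21.2 and 25.7 CPM at P1 and 7.93, 6.77 and 12.8 CPM at P56, and its call was lost without P56 replicate 2.

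Of the 272 falls 10 lay in the most open 20% of TSS regions, and they were picked out after their values were seen. Slit2 encodes a secreted guidance cue for axons and vessels, and held 182, 171 and 186 CPM at P1 and 124, 114 and 100.2 CPM at P56. Each adult library was below each newborn one, the P14 mean lay between (libraries at 172, 135 and 168 CPM), and the log2 change was -0.67 ± 0.15 (adjusted p = 0.014) in the fit of all libraries and -0.67 without P1 replicate 1 and P56 replicate 2. Cntn4, a neuronal adhesion protein, held 87.8, 81.5 and 85.6 CPM at P1 and 46.7, 48.9 and 52.4 CPM at P56. Mecom, a zinc finger transcription factor, held 94.7, 101 and 97.1 CPM at P1 and 66.9, 59.4 and 53.6 CPM at P56. Kcnip4, a potassium channel subunit of neurons, held 106, 89.1 and 97.7 CPM at P1 and 64.3, 51.2 and 62.9 CPM at P56. At all 3 the stages were apart with narrow ranges, and log2 changes were -0.79 ± 0.19, -0.70 ± 0.17 and -0.73 ± 0.18, each called in 5 of 9 fits with a library left out. Rb1cc1, an autophagy scaffold, fell with a log2 change of -0.68, called in 1 of 9. Others were Spata5 (-0.85), Slc15a5 (-0.76), Klhl32 (-0.75) and Mrgpra3 (-0.70). Of 9 fits with a library left out, 0 called Spata5, 0 called Klhl32, 1 called Slc15a5 and 2 called Mrgpra3. In the axon guidance and neuronal adhesion list 1 of 36 rose and 2 fell, Slit2 being among the falls and the rise being Plxnd1, a semaphorin receptor of vessels and heart, with 103, 132 and 111 CPM at P1 and 170.0, 205 and 185 CPM at P56 and a log2 change of 0.70 ± 0.14. The list's median was -0.14, and -0.24 without both libraries.

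Receptor genes of smell and immunity gave falls and no rises. Of 937 olfactory receptor genes 32 fell and 0 rose, 3.42% against the 0.806% of all regions, with a median log2 change of -0.51. Of 210 vomeronasal receptor genes 7 fell and 0 rose, with a median of -0.65. Variable segments of immunoglobulins and T-cell receptors, grouped by their symbols after values were seen, gave 14 falls of 287 and a median of -0.58. Examples are Vmn1r15, with 13.04, 14.4 and 13.1 CPM at P1 and 4.40, 3.76 and 3.50 CPM at P56 (log2 change -1.75 ± 0.37), and Olfr1295, with 20.9, 19.2 and 21.5 CPM at P1 and 9.69, 8.28 and 5.83 CPM at P56 (-1.34 ± 0.30). The stages were apart at both, at a few CPM in the adult. Under a scaling that follows the trend with abundance (loess), the olfactory median was -0.28 and the V-segment median -0.30, with 0 falls in each. Without P56 replicate 2 there was 1 fall among olfactory receptors and 1 among V segments. These genes lie among sparse regions, and the sparsest 20% as a whole had 135 falls of 6750 (2.00%). The count limit given below bears on all of them, and its part was not tested.

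The direction of change followed how open a region was. In the most open 20% of TSS regions 462 rose and 10 fell, with a median log2 change of 0.26, and in the sparsest 20% 5 rose and 135 fell, with a median of -0.42. The median level of the sparsest 20% was 11.2 CPM at P1 and 8.41 at P56, and that of the most open 20% 59.3 and 69.4 CPM, each with no overlap between stages (exact permutation p = 0.1, two-sided). Base composition moved along: among 15807 promoters with a RefSeq sequence, the lowest 20% by GC gave 12 rises and 74 falls, and the highest 20% gave 125 and 2. Median GC was 60.8% at 440 rises, 39.7% at 87 falls and 56.3% overall. Under the loess scaling 118 regions rose and 79 fell, with medians of the 5 abundance groups between -0.05 and 0.05, a scaling built to remove a trend with abundance. Whether the tilt is of the cells or of the libraries was not tested.

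**Figure D3:**
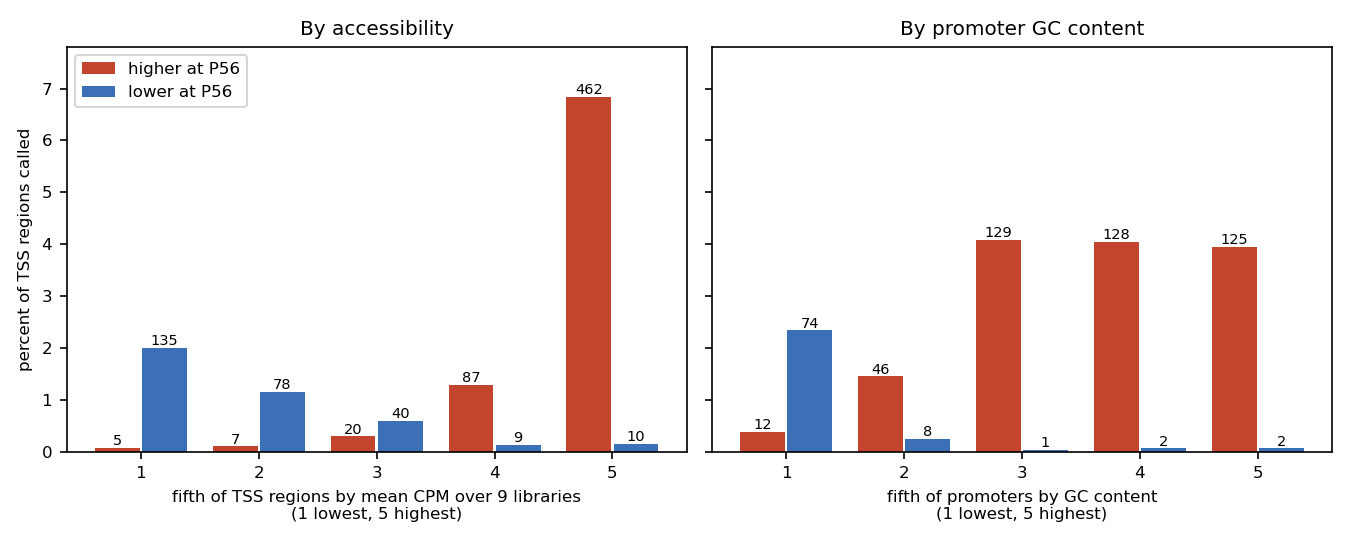
Percent of TSS regions called higher (red) or lower (blue) at P56 in 5 equal groups by mean CPM (left) and by promoter GC content (right), with the number of calls above each bar. Rises gather in the most open 20% (462 of 581) and falls in the sparsest (135 of 272) and in the most AT-rich promoters (74 of 87 with a sequence).

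Motif content in the 300-base windows (250 bases before to 50 after the start, both strands) followed the base composition. The SP/KLF letters GGGCGGG were in 49.1% of rising, 6.90% of falling and 34.05% of all promoters, and the ETS letters CCGGAAG in 13.2%, 2.30% and 11.2%. TATAAA was in 35.6% of falling, 6.36% of rising and 12.2% of all, and the AP-1 letters TGANTCA in 17.2%, 6.14% and 7.11%. Motifs of muscle and energy regulators were near the overall share in rises: MEF2 in 4.09% against 3.59%, TEAD (GGAATG) in 15.2% against 13.9%, and the ERR letters TNAAGGTCA in 1.36% against 1.01%. The E-box CACGTG, of which Ciart holds 3, was in 10.2% of rises and 8.22% of all. The CCAAT letters were in 37.3% and 37.8%. GC content differs beside each of these shares, and no enrichment was tested.

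Peaks, the regions the authors called as open, gave far fewer calls. Of 25885 tested, 55 (0.212%) rose and 60 (0.232%) fell, 115 (0.444%) in all, with median widths of 2522 and 1434.5 bp. None of the 115 was called in each fit with a library left out, because all of them missed the threshold without P56 replicate 2. Other libraries mattered too: 52 of the 55 rises and 56 of the 60 falls were lost without P1 replicate 2. Without P56 replicate 3, 41 rises and 56 falls were lost. The fit without both P56 replicate 2 and P1 replicate 1 called 36 of the 55 rises and 41 of the 60 falls. At an unadjusted p below 0.05, 1623 rose and 2528 fell. All adult libraries lay above all newborn ones at 8.54% of peaks and below them at 10.1%, 18.6% in all.

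Some rising peaks lay in or near contractile genes; they were picked by gene after their values were seen, and no share of such peaks was tested. The peak upstream of Myh7 (chr14:55002040-55006120, 7414 bp from the gene and inside the noncoding gene Gm31251) held 102, 189.8 and 218 CPM at P1 and 290.3, 650.3 and 357 CPM at P56. Its stages were apart, and the log2 change was 1.36 ± 0.25 (adjusted p = 0.0037; 0.66 without both libraries). At Pln, phospholamban, which restrains the calcium pump, the peak at chr10:53344736-53350098 held 80.6, 95.4 and 135 CPM at P1 and 167, 394 and 192 CPM at P56, also apart, with a log2 change of 1.28 ± 0.25. The start region of Pln was not called (adjusted p = 0.54). Within Ttn 3 peaks rose, at chr2:76967512-76971144, chr2:76907078-76910071 and chr2:76913949-76914976. The first held 48.5, 53.3 and 43.4 CPM at P1 and 90.6, 155 and 96.9 CPM at P56, with no overlap, and the log2 changes were 1.26 ± 0.27, 1.13 ± 0.27 and 1.42 ± 0.32. Mybpc3 (1.11 ± 0.24), Tpm1 (1.06 ± 0.25), Tnnt1 (1.17 ± 0.26), Myom3 (1.17 ± 0.29) and the microtubule-binding ligase Trim54 (1.24 ± 0.31) each held 1 rising peak. A peak in Mib1 and the host gene of Mir133a-1 held 56.8, 39.9 and 73.7 CPM at P1 and 90.6, 258 and 119 CPM at P56. Its range at P56 was wide but above P1 throughout, and the log2 change was 1.46 ± 0.28.

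The troponin locus on chromosome 1 moved both ways. A peak 2114 bp beyond Tnnt2 (chr1:135854382-135858481) held 103, 154 and 218 CPM at P1 and 232, 494 and 292 CPM at P56. A peak within Tnni1, the slow skeletal troponin I of the fetal heart (chr1:135798107-135801854), held 128, 162 and 198 CPM at P1 and 97.2, 63.1 and 58.4 CPM at P56. Both separated the stages, in opposite directions: the log2 change was 1.11 ± 0.25 (adjusted p = 0.0202) by Tnnt2 and -1.16 ± 0.25 (adjusted p = 0.017) in Tnni1. Leaving out both extreme libraries, the Tnnt2 peak dropped to 0.48 and missed the threshold (adjusted p = 0.13), while the Tnni1 peak stayed at -1.19 (adjusted p = 5.1e-05). The Tnni1 peak was singled out after its values were seen. The start region of Tnni1 was not called, with 98.6, 138 and 151 CPM at P1 and 116, 104 and 93.2 CPM at P56 (log2 change -0.30 ± 0.17, adjusted p = 0.29).

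**Figure D4:**
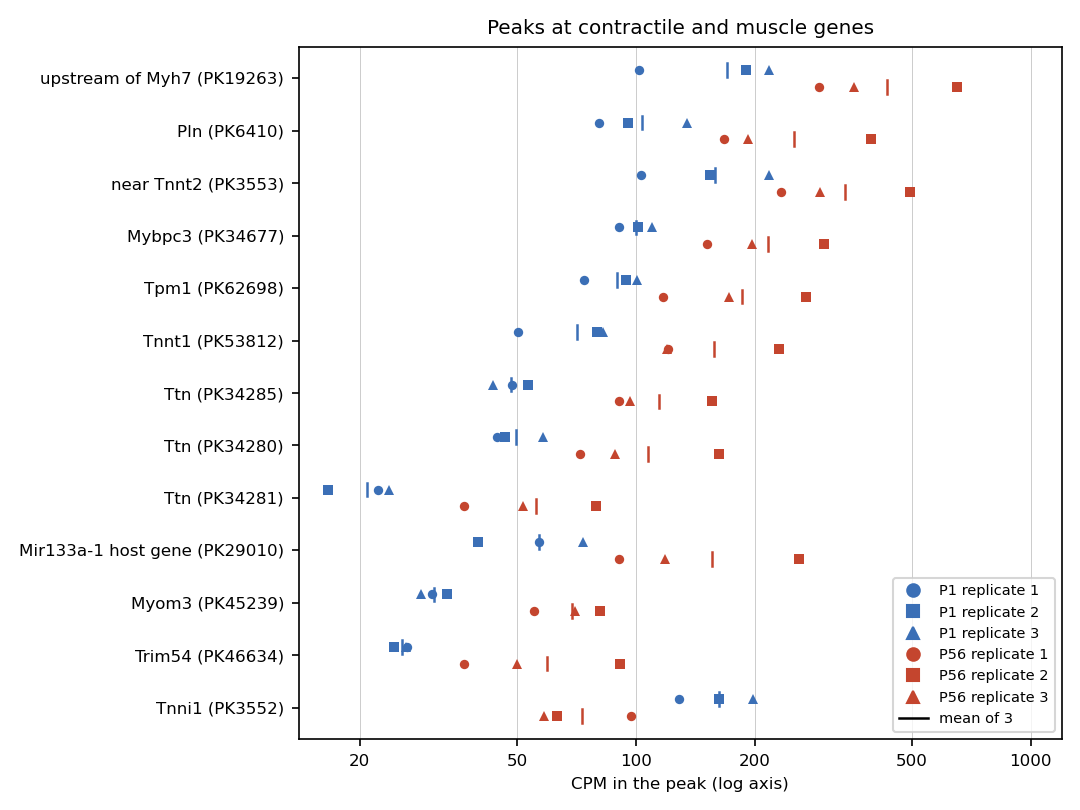
CPM in each library (log axis) at called peaks in or near contractile and muscle genes; blue is P1, red is P56, shapes are replicates 1 to 3 and the short bar is the mean of 3. Red lies right of blue at each rising peak, with P56 replicate 2 (red square) the farthest out, and the order is turned at Tnni1, where blue lies right of red.

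A few other genes, picked in the same way, appear in both tables. Atp5a1 (1.13 ± 0.24), Acacb (1.13 ± 0.27), Vdac1 (1.19 ± 0.31), Ciart (1.11 ± 0.27) and Ube4a (1.26 ± 0.32) had both a rising start region and a rising peak. Dgat2, which makes triglyceride, held 88.9, 74.3 and 58.1 CPM at P1 and 123, 198 and 145 CPM at P56, and Bdh1, of ketone use, held 127, 115 and 102 CPM at P1 and 155, 287 and 220.4 CPM at P56. At Dgat2 the stages were apart, with a log2 change of 1.08 ± 0.25; at Bdh1 they were apart as well, with 0.95 ± 0.24. Of 680 peaks within 5 kb of a rising gene 27 rose and 0 fell, with a median log2 change of 0.54. That is 3.97%, against 0.212% of all peaks, and near genes not called 20 of 17108 (0.117%) rose, with a median of 0.10. Of 56 peaks near a falling gene 0 rose and 3 fell, with a median of -0.65. Start regions and peaks come from the same libraries, so the second table is no independent check of the first.

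Several of the larger rises among peaks were at tRNA genes, which RNA polymerase III transcribes into the adaptors of translation. Of the 10 largest rising peaks that averaged at least 20 counts and had no overlap between stages, 7 hold tRNA genes, and the class was formed after this was seen. In all, 85 peaks hold 146 of the 430 tRNA genes in RefSeq, and 17 of them (20.0%, against 0.212% of all peaks) rose while 0 fell. The first (chr13:21172181-21173655), with the tRNA genes n-TLcaa4 and n-TQctg7, held 18.1, 15.5 and 24.6 CPM at P1 and 42.03, 92.4 and 71.8 CPM at P56. A second (chr11:48833416-48835032), with n-TAtgc9 and n-TKctt10 inside Trim7, held 13.2, 22.2 and 29.5 CPM at P1 and 43.3, 102 and 71.8 CPM at P56. Both separated the stages, by log2 changes of 1.82 ± 0.32 and 1.75 ± 0.32 (adjusted p = 0.0029 and 0.0031). Another (chr13:23517067-23518654), with n-TGgcc6, n-TMcat6 and n-TStga1, held 11.5, 25.5 and 37.7 CPM at P1 and 38.1, 98.95 and 63.5 CPM at P56, where P56 replicate 1 only just exceeded P1 replicate 3 (log2 change 1.44 ± 0.33).

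Over the whole tRNA class the libraries graded into each other. The summed level was 3316, 4440 and 5303 CPM at P1 and 5265, 9067 and 6843 CPM at P56. P1 replicate 3 thus lay above P56 replicate 1. A log2 change above 0 was seen at 81 of 85 peaks (95.3%, against 52.4% of all peaks and 73.3% of the most open 20% of peaks). All adult libraries lay above all newborn ones at 29 of 85 (34.1%, against 8.54% of all peaks). The peaks share the same libraries, so their signs are not independent. The median was 0.65, 0.32 without P56 replicate 2 and 0.13 without both libraries, and all 17 calls were lost without P56 replicate 2, with log2 changes then of 0.78 to 1.51; 12 of the 17 were called without both libraries. The 7SL RNA gene Rn7s2, also made by polymerase III, lies in a peak that held 19.7, 26.6 and 44.2 CPM at P1 and 53.9, 82.9 and 76.8 CPM at P56. Its stages were apart, with a log2 change of 1.23 ± 0.30 (adjusted p = 0.035).

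**Figure D5:**
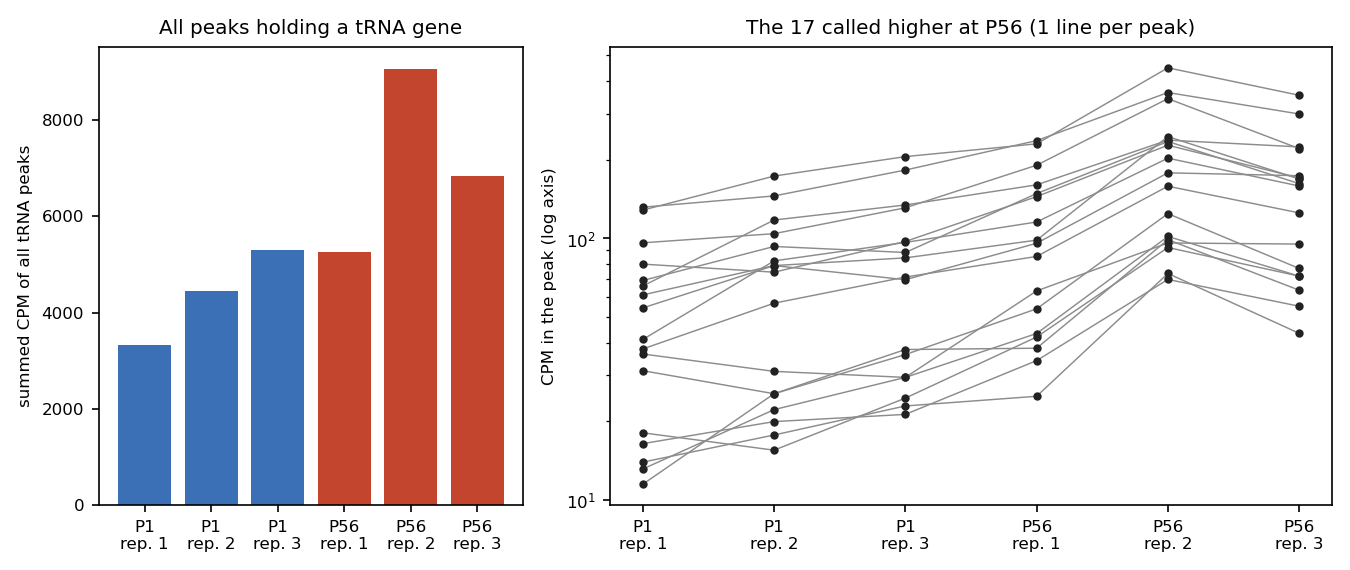
Left, CPM summed over all 85 peaks that hold a tRNA gene in each P1 (blue) and P56 (red) library; right, CPM (log axis) of the 17 that rose, where a line joins the values of 1 peak and replicates have no order. The sums run from 3316 to 5303 at P1 and from 5265 to 9067 at P56, so they overlap, and all 17 peaks are highest in P56 replicate 2.

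Some protein-coding genes start next to a tRNA gene, and 52 TSS regions lie within 2 kb of one. Of these 11 rose (21.2%, against 1.72% of all) and 0 fell, with a median of 0.37. The 11 include the tRNA gene n-TStga1 itself and the noncoding gene 9130213A22Rik. Where no start site was known, the distance was taken from the gene ends. Without P56 replicate 2, 5 of the 52 rose (median 0.21), and without both libraries 5 rose (median 0.12). The start sequences of Polr3e, a subunit of RNA polymerase III itself, and Ndufs7 are shown because each contains the end of a tRNA gene, so a start region that reaches so far counts both. They cover chr7:120917528-120917777 and chr10:80249199-80249448, plus strand, GRCm38.p6, from RefSeq, and capitals mark the bases of n-TLaag4 (82 bp, 71 of them in the window) and n-TNgtt7 (74 bp, 34 in the window).
Polr3e: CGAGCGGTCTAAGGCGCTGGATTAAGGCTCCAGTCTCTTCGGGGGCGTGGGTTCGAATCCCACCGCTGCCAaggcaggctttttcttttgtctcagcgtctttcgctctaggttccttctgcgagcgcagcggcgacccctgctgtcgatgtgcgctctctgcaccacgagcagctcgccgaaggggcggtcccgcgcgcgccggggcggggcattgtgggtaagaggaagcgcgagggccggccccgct
Ndufs7: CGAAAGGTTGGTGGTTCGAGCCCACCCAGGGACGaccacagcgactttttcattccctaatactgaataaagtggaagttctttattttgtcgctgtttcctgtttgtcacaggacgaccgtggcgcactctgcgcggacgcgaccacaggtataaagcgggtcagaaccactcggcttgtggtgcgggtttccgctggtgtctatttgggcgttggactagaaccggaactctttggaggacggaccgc
The tRNA genes end 180 and 217 bases before the starts. Polr3e held 38.2, 47.97 and 58.3 CPM at P1 and 77.5, 145 and 109.5 CPM at P56. Ndufs7, of complex I, held 48.7, 68.5 and 80.9 CPM at P1 and 115, 225 and 136 CPM at P56. At both the stages were apart and P56 replicate 2 was highest, with log2 changes of 1.21 ± 0.21 and 1.28 ± 0.21 (adjusted p = 0.0034 and 0.0014). Fbxo31 (1.18 ± 0.18) and Agbl5 (0.91 ± 0.17) complete the 4 called in each fit. At these genes the counts cannot be divided between the tRNA gene and its neighbour.

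Of the 60 falling peaks 29 lay more than 50 kb from any protein-coding gene. Of 4172 such distant peaks in all 2 rose and 29 fell (median log2 change -0.43), whereas of 9709 within 1 kb of the start or end of a protein-coding gene 22 rose and 3 fell (0.17). Without both extreme libraries these medians were -0.12 and -0.07. Those at or inside genes included Ripor2, with 56.8, 67.7 and 82.7 CPM at P1 and 28.9, 21.7 and 25.05 CPM at P56, and Dock2, a Rac activator of leukocytes, with 97.9, 90.99 and 114 CPM at P1 and 40.7, 47.1 and 45.1 CPM at P56. The stages were apart at both, and log2 changes were -1.46 ± 0.32 and -1.18 ± 0.27. The best covered fall, at Tmem267 (chr13:119610223-119617879), held 797, 757 and 529.6 CPM at P1 and 377, 304 and 292 CPM at P56. Its highest adult library lay below its lowest newborn one, and the log2 change was -1.10 ± 0.22 (adjusted p = 0.0095; -0.93 without both libraries). Dock2 and Tmem267 were picked after their values were seen.

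Some other falls lay in clusters of repeated genes, picked after the values were seen. Beside the natural killer receptor gene Klra17, whose start fell too, a peak (chr6:129881797-129884681) held 71.6, 78.8 and 75.3 CPM at P1 and 35.5, 21.7 and 23.4 CPM at P56. Its stages were apart, with a log2 change of -1.49 ± 0.30. On chromosome 12, with the zinc finger gene Zfp996 as the nearest protein-coding gene at 7030 to 145363 bp, 3 peaks fell (PK11613, PK11603 and PK11604), by log2 changes of -1.30 ± 0.26, -1.11 ± 0.25 and -1.02 ± 0.25. On chromosome 3 another 3 with Tdpoz3 or Tdpoz4 as the nearest protein-coding gene fell (PK39654, PK39656 and PK39649), by -1.41 ± 0.35, -1.09 ± 0.27 and -1.05 ± 0.27. Within the immunoglobulin heavy chain locus 3 more fell (PK14213, PK14239 and PK14300), by -1.70 ± 0.41, -1.53 ± 0.39 and -1.01 ± 0.26. Reads from near-identical copies can be assigned to the wrong member in such clusters.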

How the data were processed

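ATAC-seq counts from 9 pooled-heart libraries (3 each at P1, P14 and P56) were used. Both deposited tables hold raw read counts, one for TSS regions and the other for peaks, made by the authors. The submitters' processing notes name featureCounts 1.4.2, MACS 1.4.0, BWA 0.7.10, bedtools 2.26, SAMtools 1.3.1, bcl2fastq 2.17.1.14 and the build GRCm38, with no roles or settings. The width of the TSS window and the handling of duplicate reads are not given in the sources used here. Groups come from the labels.

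Counts were fitted with edgeR 4.0.16 (quasi-likelihood test, TMM scaling, filterByExpr) in R 4.3.3 over all 9 libraries, since the 3 stages share 1 estimate of spread, with the contrast P56 minus P1 and Benjamini-Hochberg adjustment over all features at 0.05. DESeq2 1.42.0 was an alternative. CPM are scaled by TMM, and ± is the standard error of the log2 change. Single library measures used an exact two-sided permutation test. Gene positions and sequences are from RefSeq GRCm38.p6; 77.3% of TSS symbols had a position and 46.8% a promoter. Named genes are the 12 largest rises and 12 largest falls that averaged 20 counts or more and had no overlap between stages, those called in each leave-one-out fit first and predicted genes skipped, up to 3 members per list, and the 10 largest peaks each way under the same count and overlap rule; other called list members and peaks were named after their values were seen. Some named items are not reported here. Members, 35 lists and motifs were chosen with earlier results of these data known. On simulated counts the test recovered 34% of 2-fold and 83% of 3-fold changes at TSS regions, and 28% and 71% at peaks.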

Additional observations from a re-analysis of the deposited data

How the results depend on the processing

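The 581 rises and 272 falls at TSS regions, and the 55 and 60 at peaks, depended on settings as follows. On library size alone TSS regions gave 319 rises and 778 falls, a share of rises of 29.1% against 68.1%; at peaks that share was 33.1% against 47.8%. A mean count of at least 20 left 153 and 117 at TSS regions and 18 and 26 at peaks. DESeq2's test gave 259 and 2 at TSS regions, and 59 and 13 at peaks (81.9% rises). The P1 and P56 libraries fitted alone gave 142 and 43, and 27 and 22. Loess scaling gave 118 and 79, with 1 call changing sign, and 18 and 28. An adjusted p below 0.01 left 86 and 2, and 9 and 4; a log2 change beyond 1 left 173 and 248 at TSS regions (41.1% rises). Without P1 replicate 1 and P56 replicate 2, peaks gave 394 rises and 297 falls, and TSS regions 472 and 191. Leaving out 1 library gave 122 to 1164 rises and 25 to 359 falls at TSS regions, and 0 to 271 and 0 to 378 at peaks. The 0 at peaks came without P56 replicate 2, where edgeR made 0 calls (1010 peaks were higher and 1272 lower at an unadjusted p below 0.05) and all 115 were lost; without it 473 rises and 257 falls at TSS regions were lost. At TSS regions, leaving out P1 replicate 2 lost 437 rises and 202 falls, and leaving out P1 replicate 1 lost 409 and 210. Where no value shows it, the cause was not tested.

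Deviations of same-numbered P1 and P56 libraries correlated by 0.219, 0.043 and -0.075 at TSS regions and by 0.445, 0.109 and -0.178 at peaks. Whether libraries with the same replicate number belong together was not settled, and the main fit treats them as unpaired. With a replicate block, 1387 rose and 595 fell at TSS regions, and 273 and 411 at peaks. Of the 122 named TSS results, 93 lost the call without P56 replicate 2, 78 without both libraries, 77 under loess and 22 on library size, and none changed direction under these. On simulated counts most 2-fold changes were missed, so a region without a call may still differ at this depth.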
